A study of Mus musculus with 16 samples.

Results

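The genes described here are 34 imprinted genes, among them H19 and Dlk1, taken by name from a list and matched through their Ensembl identifiers to rows of the deposited count table. All 34 had a row among the 54838 genes of the table, and 33 had enough counts to be tested; the exception was Nespas. RNA of adrenal glands was sequenced in bulk in 16 libraries, in 4 groups of 4: female control, female Rspo1 GOF, male control and male Rspo1 GOF. All mice were 4 weeks old and of a mixed genetic background, and the labels do not say whether each library came from an animal of its own. GOF stands for gain of function of Rspo1, the gene of the secreted WNT amplifier R-spondin 1; the promoter behind the GOF allele and the genotype of the controls beyond the word control are not given in the sources used here. The groups allow GOF to be compared with control in each sex and the sexes within each genotype.

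Imprinted genes are transcribed mainly or only from the allele inherited from one parent, because an imprinting control region carries DNA methylation on one parental copy. They lie in domains that often pair protein-coding genes with long noncoding RNAs, and many of them act in growth: Igf2, Dlk1 and Peg3 are expressed from the father's allele, while H19, Cdkn1c and Igf2r are expressed from the mother's. In the adrenal, DLK1 is known from the capsule and the catecholamine-making chromaffin cells of the medulla, and altered IGF2, H19 and CDKN1C are known from adrenocortical tumours and overgrowth syndromes. Bulk counts add both alleles together, so nothing below tells which allele an RNA came from.

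Levels are given as CPM, counts scaled to the library total after TMM normalisation, and listed in the order of replicates 1 to 4 of a group. Library totals ran from 31275146 to 43003968 counts. Rspo1 itself stood at 14.8 ± 17.4 CPM in female controls, 458 ± 80.2 in female GOF, 30.5 ± 12.6 in male controls and 805 ± 201 in male GOF (SD, n = 4). The sex labels were checked with Xist, at 348 to 1228 CPM in female and at most 0.576 CPM in male libraries, and with the Y-linked Ddx3y, with 0 counts in all female libraries and 137 to 166 CPM in male libraries. Some control libraries stood apart. Male control 2 held 9201 summed CPM of 10 liver markers, against at most 775 in any other library, female control 1 and female control 3 held 1173 and 200.5 summed CPM of 10 kidney tubule markers, against at most 3.45 elsewhere, and male control 2 also held the most skeletal muscle markers (93.4 summed CPM).

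Most of the tested members were lower in GOF adrenals. In females 27 of the 33 tested members passed the test, 20 of them lower and 7 higher in GOF, where 39.6% of all 18214 tested genes passed, 20.6% lower and 19.0% higher. In males 23 members passed, 22 lower and 1 higher, against 36.9% of all genes, 21.8% lower and 15.2% higher. The median log2 fold change of the tested members was -0.96 in females and -1.49 in males, beside 0.05 and 0.01 over all tested genes. The same 19 members fell in both sexes, and all 19 also had GOF libraries that lay entirely below the control libraries: Dlk1, Rtl1, Meg3, Rian, Mirg, Igf2, Slc22a3, Peg3, Usp29, Zim1, Ndn, Magel2, Snrpn, Gnas, Mest, Plagl1, Nnat, Impact and Slc38a4. The share of all tested genes that fell in both sexes, or did so without overlap, was not counted. Kcnq1ot1 rose in both sexes, and Peg10 rose in females and fell in males.

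Both parental classes were among the genes that fell. The class of a member was taken from a list and was not measured in these adrenals. Of 12 members listed as expressed from the mother's allele, 6 fell and 2 rose in females, and 6 fell and none rose in males. Of 19 tested members listed as expressed from the father's allele, 13 fell and 5 rose in females, and 14 fell and 1 rose in males. Without overlap between the groups, 20 members were lower and 4 higher in female GOF, beside 20.4% and 17.4% of all tested genes, and 22 were lower and 2 higher in male GOF, beside 19.1% and 14.0%. The tests were edgeR quasi-likelihood tests whose p-values were corrected over the 18214 genes by the Benjamini-Hochberg method, with a threshold of 0.05. On limma with log2(FPKM + 1), 60.7% of the called genes were higher in females and 61.3% in males, where edgeR gave 48.0% and 41.1%, and no member that passed with edgeR changed its direction. Other settings moved the share the other way. With no filter on low counts it was 38.6% in females and 40.3% in males. With a log2 fold change of at least 1 it was 23.2% and 27.0%. The median over all genes in males was 0.12 with limma on log2(FPKM + 0.1), beside 0.01 with edgeR.

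**Figure D1:**
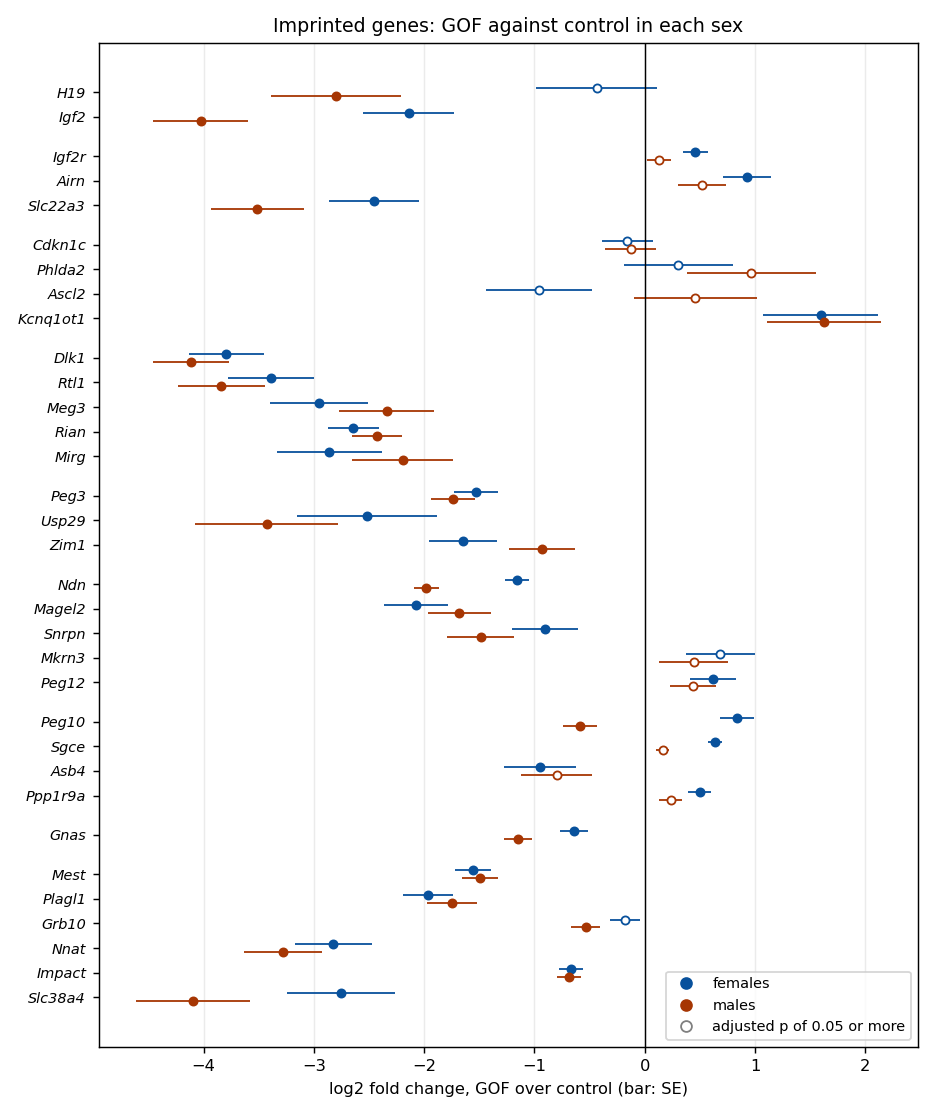
Log2 fold change of each tested member, GOF over control, with its SE as a bar, in females (blue) and males (orange), grouped by domain; open circles did not pass an adjusted p of 0.05. Most members lie left of 0 in both sexes, Dlk1 farthest in females at -3.79 and in males at -4.12, and Peg10 lies on opposite sides of 0.

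Markers of several cell types moved with the genotype in the same libraries. The 12 chromaffin markers, such as the catecholamine enzymes Th, Dbh and Pnmt, summed to 5514 to 12471 CPM in female controls and 240 to 899 in female GOF, and to 9149 to 13254 in male controls and 471 to 1023 in male GOF. All 12 fell in both sexes (median log2 fold change -3.77 and -4.06), and no chromaffin marker was at 0 in a control or GOF group. Of 10 capsule and stroma markers 9 fell in females and 10 in males, of 7 adipocyte markers 6 and 7, and of 6 Schwann and sustentacular markers 6 and 6. Of 10 liver markers 1 fell in females and 10 in males (median log2 fold change -6.16), with sums of 183 to 9201 CPM in male controls and 8.58 to 82.9 in male GOF. Kidney tubule markers fell in females in 2 of 2 tested (median -5.32) and in none in males, and skeletal muscle markers fell in 1 of 4 tested in females and 3 of 4 in males (median -3.64). No endothelium marker of 7 passed in females, and 2 rose and 1 fell in males. Of 8 macrophage markers 1 rose and 1 fell in females, and 4 rose and 1 fell in males. Adrenal cortex markers did not move together: of 8, 2 rose and 2 fell in each sex. In bulk RNA, fewer cells of a type and less RNA per cell cannot be told apart. The part of these markers in the changes of the imprinted genes below was not tested.

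**Figure D2:**
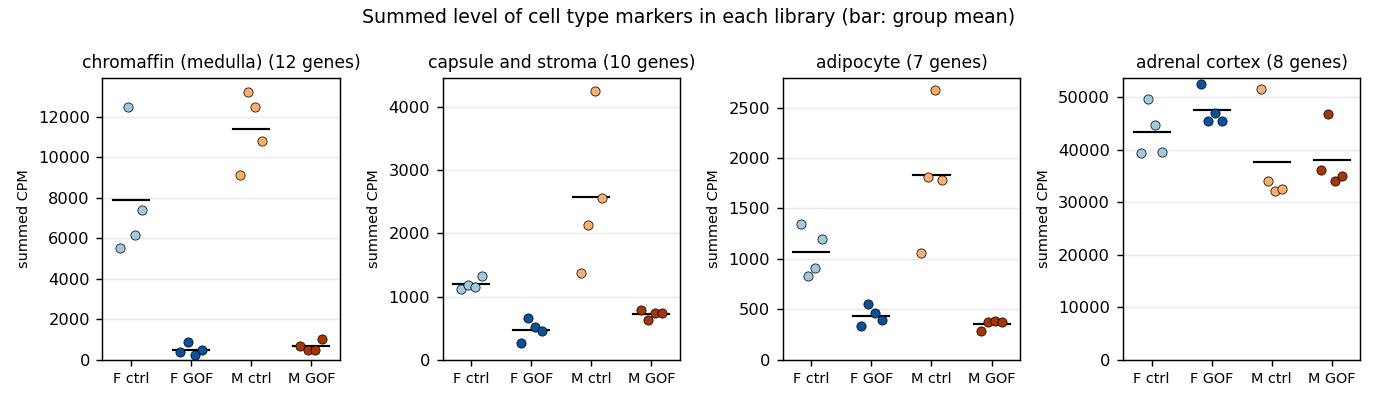
Summed CPM of chromaffin, capsule and stroma, adipocyte and adrenal cortex markers in each of the 16 libraries, with the group mean as a bar. Chromaffin sums lie between 5514 and 13254 in control libraries and between 240 and 1023 in GOF libraries, while cortex sums overlap between the genotypes.

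In the Dlk1-Meg3 domain of chromosome 12, all 5 members were lower in both sexes. Median log2 fold changes were -2.95 in females and -2.43 in males. Dlk1 (ENSMUSG00000040856, 109452823 to 109463336 on GRCm38, plus strand) encodes a membrane protein with EGF-like repeats that holds back adipocyte differentiation. Dlk1 measured 504, 901, 550.1 and 567 CPM in female controls and 35.0, 80.4, 23.6 and 42.5 in female GOF. Male controls held 863, 998, 996 and 826 CPM of Dlk1 and male GOF 62.3, 44.4, 38.3 and 67.1. Every GOF library lay below every control library, and female control 2 was the highest of the female controls, as it was for chromaffin markers. Dlk1 fell 13.9-fold in females (log2 fold change -3.79, SE 0.339, adjusted p = 2.52e-06) and 17.4-fold in males (log2 fold change -4.12, SE 0.344, adjusted p = 1.13e-06).

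Rtl1, derived from a retrotransposon and needed in the placenta, shared the direction of Dlk1 at a lower level. Its levels were 5.74, 10.4, 5.88 and 6.11 CPM in female controls and 0.585, 1.37, 0.329 and 0.343 in female GOF. In males they were 8.46, 12.4, 11.4 and 12.1 CPM in controls and 0.742, 0.743, 0.901 and 0.695 in GOF. The groups did not overlap in either sex, and Rtl1 was highest in female control 2 and female GOF 2, which were also the highest of their groups for Dlk1. Rtl1 fell in females (log2 fold change -3.39, SE 0.39, adjusted p = 1.5e-05; -4.09 without female GOF 2) and in males (log2 fold change -3.84, SE 0.395, adjusted p = 4.26e-06).

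Meg3, Rian and Mirg are noncoding RNAs expressed from the mother's allele of the same domain, transcribed one after the other on the plus strand. Meg3 (109541001 to 109571726) measured 371, 219.8, 229 and 362 CPM in female controls and 45.7, 54.7, 11.4 and 40.7 in female GOF. Male libraries held 394, 709, 367 and 606 CPM of Meg3 in controls and 52.1, 97.3, 166 and 94.6 in GOF. Meg3 was lowest in female GOF 3 and, among male GOF, highest in replicate 3. Set beside the chromaffin sums, its order was mixed. Female GOF 3 was also the lowest of its group for the markers, and male control 2 was the highest of its group for both. Female control 2, highest of its group for the markers, was the lowest female control for Meg3. Male GOF 3 was the lowest of its group for the markers. The link between Meg3 and these markers was not tested. Meg3 fell in females (log2 fold change -2.95, SE 0.446, adjusted p = 0.000156) and in males (log2 fold change -2.34, SE 0.434, adjusted p = 0.000774), with no overlap of the groups.

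Rian, host of box C/D snoRNAs and miRNAs, stood at 187, 201, 151 and 201 CPM in female controls and 29.2, 33.9, 18.9 and 36.5 in female GOF. Its male levels were 257, 386, 286 and 309.8 CPM in controls and 42.3, 49.4, 83.9 and 54.3 in GOF. Rian fell in females (log2 fold change -2.64, SE 0.232, adjusted p = 2.14e-06) and in males (log2 fold change -2.43, SE 0.229, adjusted p = 2.4e-06). Mirg, the distal miRNA host, had 4.34, 2.58, 3.23 and 4.34 CPM in female controls and 0.731, 0.779, 0.0896 and 0.372 in female GOF. Mirg in males had 4.43, 8.25, 4.82 and 7.26 CPM in controls and 0.822, 1.03, 2.0 and 1.54 in GOF. Mirg fell in both sexes (log2 fold change -2.86, SE 0.478, adjusted p = 0.000307 in females; log2 fold change -2.20, SE 0.455, adjusted p = 0.00167 in males), and the GOF libraries of neither sex reached the controls. The ratio of Mirg to Meg3 CPM overlapped between all groups, with means of 0.0124 ± 0.00115 in female controls, 0.0118 ± 0.00393 in female GOF, 0.0120 ± 0.000817 in male controls and 0.0137 ± 0.00279 in male GOF (SD, n = 4).

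**Figure D3:**
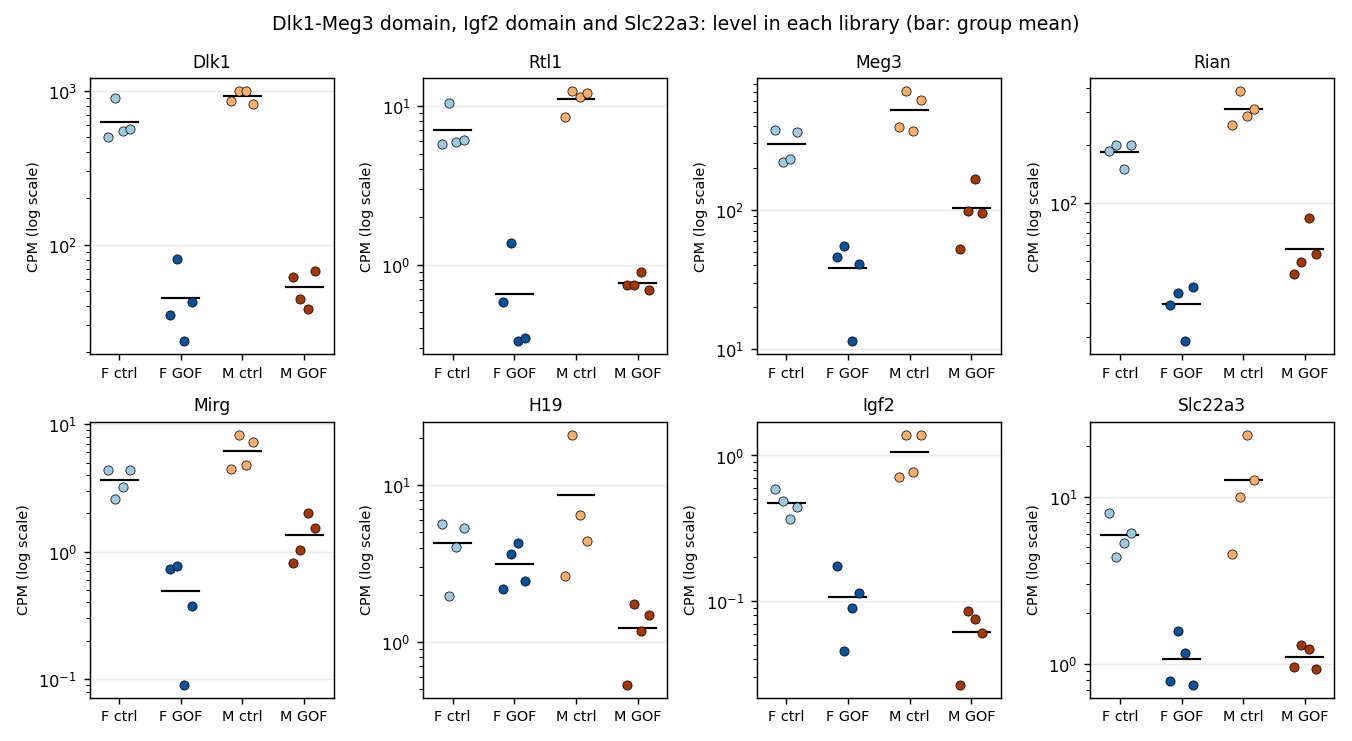
CPM on a log scale in each library for the 5 members of the Dlk1-Meg3 domain, H19, Igf2 and Slc22a3, with the group mean as a bar. For all but H19 in females, the GOF libraries lie below the control libraries of the same sex, and male control 2 is the highest library for H19 at 20.9 CPM.

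The start of Meg3 carries a CRE, the palindrome TGACGTCA bound by CREB and related factors that act in the cAMP pathway. RefSeq promoter windows of 300 bases (250 before to 50 after a start, GRCm38.p6) were used for 27 of the 34 members, in 44 windows. A CRE was found in 3 of these, 6.82%, and in 1.79% of all 32851 windows: in Meg3, 57 bases before the start, in Peg3, and in Usp29, whose window shares 263 bases with that of Peg3. The matches of Peg3 and Usp29 are the same bases, so the 3 windows hold 2 distinct matches. The TCF/LEF motif CTTTGAT of WNT signalling was in 0 of the 44 windows and in 3.73% of all, each searched on both strands. YY1 (GCCATNTT) was in 4.55% against 6.05%, the E-box CACGTG in 6.82% against 7.15% and CCCTC, part of the CTCF motif, in 79.5% against 66%. A match is a description of letters and not a measured site. The windows of Meg3 (chr12:109540746-109541045, plus strand) and Peg3 (chr7:6730370-6730669, minus strand) are shown with the CRE in capitals because both genes fell in both sexes.
Meg3: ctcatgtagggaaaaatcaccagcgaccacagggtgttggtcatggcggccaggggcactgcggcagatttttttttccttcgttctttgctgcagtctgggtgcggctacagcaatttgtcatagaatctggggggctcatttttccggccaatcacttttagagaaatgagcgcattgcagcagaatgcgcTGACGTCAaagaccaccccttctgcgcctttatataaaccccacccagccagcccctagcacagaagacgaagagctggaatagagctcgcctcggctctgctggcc
Peg3: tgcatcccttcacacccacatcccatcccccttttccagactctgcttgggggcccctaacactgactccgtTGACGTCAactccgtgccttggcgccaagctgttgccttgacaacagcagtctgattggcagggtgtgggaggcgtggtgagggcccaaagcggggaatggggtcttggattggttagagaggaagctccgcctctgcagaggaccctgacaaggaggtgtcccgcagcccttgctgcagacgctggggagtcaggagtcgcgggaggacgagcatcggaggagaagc

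Several members (H19, Igf2, Meg3, Rian, Mirg, Rtl1, Usp29 and Mest) overlap RefSeq miRNAs, 56 mature sequences in all, 26 of them in Mirg, 13 along Rtl1 and 6 in Rian. Of those along Rtl1, 11 lie on the strand opposite to it, the strand of Meg3 and Rian. The 56 sequences have 55 distinct seeds (bases 2 to 8), and the shared seed belongs to miR-453 and miR-496a-5p of Mirg. The miRNAs themselves were not measured here, only the RNAs of the host genes. The following are shown with the seed in capitals, for hosts whose values are described: the pair with a common seed and miR-134-5p of Mirg, miR-370-3p of Rian, miR-770-5p of Meg3, miR-127-3p opposite to Rtl1, miR-675 of H19, miR-483-3p of Igf2 and miR-335-5p of Mest.
miR-453: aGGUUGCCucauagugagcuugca
miR-496a-5p: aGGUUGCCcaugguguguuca
miR-134-5p: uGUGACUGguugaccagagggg
miR-370-3p: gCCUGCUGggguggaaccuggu
miR-770-5p: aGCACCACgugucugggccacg
miR-127-3p: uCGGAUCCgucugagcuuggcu
miR-675-5p: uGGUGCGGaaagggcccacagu
miR-675-3p: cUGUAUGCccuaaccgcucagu
miR-483-3p: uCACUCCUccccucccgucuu
miR-335-5p: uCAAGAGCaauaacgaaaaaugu

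H19 and Igf2 lie side by side on chromosome 7 and share enhancers; IGF2 is a fetal growth factor, and H19 a noncoding RNA that yields miR-675. H19 (ENSMUSG00000000031, 142575529 to 142578143, minus strand) measured 5.66, 1.97, 4.03 and 5.31 CPM in female controls and 2.16, 3.62, 4.30 and 2.46 in female GOF. Male controls held 2.65, 20.9, 6.46 and 4.38 CPM of H19 and male GOF 0.53, 1.74, 1.177 and 1.48. The female groups overlapped, and H19 did not pass the test in females (log2 fold change -0.44, SE 0.549, adjusted p = 0.554; 95% interval -1.61 to 0.74). In males every GOF library lay below every control library, and H19 fell 6.97-fold (log2 fold change -2.80, SE 0.588, adjusted p = 0.00187). Male control 2, the library with liver markers, was the highest at 20.9 CPM, and without it the male change was -1.87 (adjusted p = 0.00494). The difference between the sexes in the GOF effect did not pass the test for H19 (interaction -2.36, SE 0.79, adjusted p = 0.107), but passed without male control 1 (adjusted p = 0.0495) and with DESeq2 (adjusted p = 0.0308).

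Igf2 (ENSMUSG00000048583, 142650766 to 142666816, minus strand) was near the lower end of the tested levels. It measured 0.593, 0.484, 0.369 and 0.44 CPM in female controls and 0.175, 0.0458, 0.0896 and 0.114 in female GOF. In males it measured 0.708, 1.38, 0.773 and 1.39 CPM in controls and 0.0265, 0.0857, 0.0751 and 0.0604 in GOF. Igf2 fell in females (log2 fold change -2.14, SE 0.411, adjusted p = 0.000906) and in males (log2 fold change -4.03, SE 0.433, adjusted p = 6.25e-06), again with no overlap. The male groups summed to 146 and 9 counts. After scaling to the library totals with their TMM factors the ratio was 17.4, with a 95% interval of 8.92 to 38.8 from counting error alone. Igf2 shares 64.5% of its exon bases with Gm49394 and Igf2os, and Gm49394 had 0 counts in all libraries. Igf2os on the other strand had 19, 10, 38 and 12 counts in female control, female GOF, male control and male GOF.

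At the Igf2r domain of chromosome 17 the transporter gene fell while the receptor gene did not. Igf2r encodes the receptor that carries IGF2 to lysosomes, and Airn is the noncoding RNA from the father's allele that runs against it. Slc22a3, an organic cation transporter that takes up monoamines, measured 7.95, 4.33, 5.29 and 6.02 CPM in female controls and 0.789, 1.58, 1.16 and 0.743 in female GOF. Male levels of Slc22a3 were 4.55, 9.98, 23.4 and 12.5 CPM in controls and 0.954, 1.29, 1.23 and 0.936 in GOF. Slc22a3 fell in females (log2 fold change -2.45, SE 0.407, adjusted p = 0.000286) and males (log2 fold change -3.51, SE 0.422, adjusted p = 1.6e-05), with no overlap, and it was highest in male control 3, the library with the highest capsule and stroma sum (4254 CPM).

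Igf2r measured 203, 164, 170.4 and 187 CPM in female controls and 231, 287, 249.6 and 227 in female GOF, and it rose 1.38-fold (log2 fold change 0.46, SE 0.111, adjusted p = 0.00454). Male Igf2r levels of 229.6, 179, 189 and 198 CPM in controls and 200.4, 242, 186 and 242 in GOF overlapped and did not pass the test (log2 fold change 0.13, SE 0.111, adjusted p = 0.383). Airn had 4.18, 2.58, 2.62 and 3.64 CPM in female controls and 5.96, 7.31, 4.12 and 7.41 in female GOF and rose there (log2 fold change 0.93, SE 0.22, adjusted p = 0.00397). In males Airn had 4.98, 4.36, 4.39 and 5.22 CPM in controls and 5.14, 6.72, 8.31 and 6.95 in GOF, and it did not pass (log2 fold change 0.52, SE 0.218, adjusted p = 0.0753), although it did with DESeq2 (adjusted p = 0.0428) and with limma on filtered FPKM (0.0306 and 0.0339). Neither interaction passed for these genes (adjusted p = 0.254 for Igf2r and 0.476 for Airn). Airn lies opposite to introns of Igf2r, and where counting ignores strand, unspliced Igf2r RNA can be counted as Airn.

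In the Kcnq1ot1 domain of chromosome 7, Cdkn1c, Phlda2 and Ascl2 were lower in male than in female controls and did not pass the test for genotype. Cdkn1c (ENSMUSG00000037664, 143458339 to 143461050, minus strand) encodes p57, an inhibitor of cyclin-dependent kinases. Cdkn1c measured 200.1, 289, 203 and 192 CPM in female controls and 58.7, 42.5, 45.2 and 32.4 in male controls. In GOF it measured 202, 174, 222 and 195 CPM in females and 29.7, 65.2, 36.1 and 32.7 in males. Every female library lay above every male library, and female control 2 was the highest. Cdkn1c was 4.95-fold lower in males among controls (log2 fold change -2.31, SE 0.241, adjusted p = 1.44e-05) and 4.84-fold lower among GOF (log2 fold change -2.28, SE 0.241, adjusted p = 1.45e-05). The GOF effect did not pass in either sex, at -0.16 (95% interval -0.65 to 0.33) in females and -0.13 (95% interval -0.62 to 0.37) in males. The overlapping Gm44732 on the other strand had at most 7 counts in a group.

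Phlda2 and Ascl2, whose products restrain placental growth and specify trophoblast, were rare here but were also lower in males. Phlda2 ranged from 0.339 to 0.997 CPM in female controls and from 0.0309 to 0.246 in male controls (log2 fold change -2.25, SE 0.565, adjusted p = 0.0108), with no overlap. Female GOF libraries held 0.435 to 1.2 CPM of Phlda2, male GOF libraries 0.15 to 0.514 (log2 fold change -1.59, SE 0.522, adjusted p = 0.0323). These overlapped, and the call was lost without female GOF 1 or 3 or male GOF 1, 3 or 4 (adjusted p between 0.0740 and 0.1003). Ascl2 ranged from 0.296 to 0.462 CPM in female and from 0.0272 to 0.246 in male controls (log2 fold change -1.92, SE 0.524, adjusted p = 0.0166; -2.73 without male control 1), again with no overlap, and its GOF libraries overlapped between the sexes. Both control calls were lost without female controls 1 and 3 and male control 2 together (adjusted p = 0.0599 for Phlda2 and 0.107 for Ascl2), and that of Ascl2 with the number range of the sample titles as a covariate (0.130). Neither gene passed for GOF against control in either sex.

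**Figure D4:**
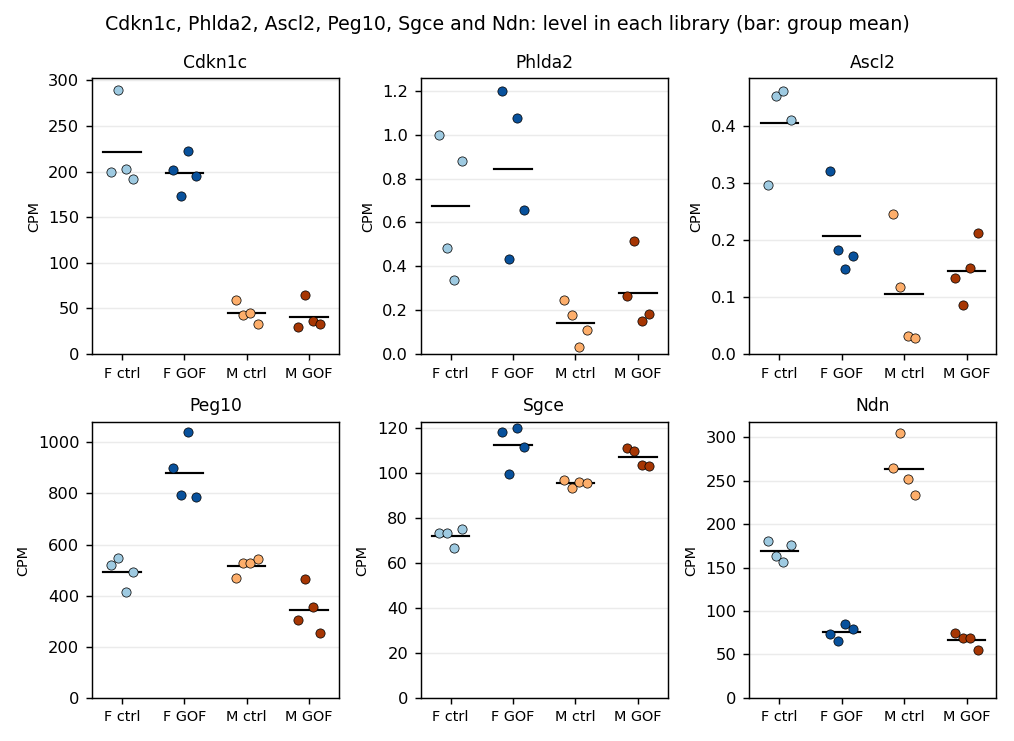
CPM on a linear scale in each library for Cdkn1c, Phlda2, Ascl2, Peg10, Sgce and Ndn, with the group mean as a bar. Cdkn1c lies between 174 and 289 CPM in female libraries and between 29.7 and 65.2 in male libraries in both genotypes, and Peg10 is higher in female GOF and lower in male GOF than in controls.

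Kcnq1ot1, the noncoding RNA that silences this domain on the father's allele, was higher in GOF. It measured 6.60, 1.74, 2.31 and 4.81 CPM in female controls and 16.6, 18.4, 3.91 and 7.83 in female GOF. Male libraries had 5.23, 2.93, 4.88 and 5.90 CPM in controls and 6.57, 13.7, 24.0 and 14.2 in GOF. The groups overlapped in females and not in males, and Kcnq1ot1 rose in females (log2 fold change 1.59, SE 0.519, adjusted p = 0.0246) and males (log2 fold change 1.63, SE 0.518, adjusted p = 0.0235). The female call was lost without female control 2 or 3 or female GOF 1 or 2 (adjusted p between 0.0671 and 0.0896), and the male call without male control 2 or 3 or male GOF 3 (adjusted p between 0.0511 and 0.0897). Without a filter, or with only the groups compared, Kcnq1ot1 also missed the threshold in females (adjusted p of 0.0587 and 0.0583), as it did with limma on unfiltered FPKM in both sexes (0.189 and 0.0649) and in males with the number range of the sample titles as a covariate (0.0505). Without female controls 1 and 3 and male control 2 it missed the threshold in both sexes (0.0656 in females and 0.0749 in males). The annotated exon of Kcnq1ot1 covers 93092 bases and runs opposite to Kcnq1. Where counting ignores strand, unspliced Kcnq1 RNA can be counted as Kcnq1ot1.

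The Peg3 domain at the other end of chromosome 7 fell in all 3 members in both sexes. Peg3 (6703892 to 6730431, minus strand) encodes a large zinc finger protein and measured 93.6, 109.8, 85.2 and 108 CPM in female controls and 35.1, 48.9, 23.2 and 30.2 in female GOF. Male levels of Peg3 were 137, 231, 163 and 174 CPM in controls and 50.4, 48.4, 64.2 and 48.3 in GOF. Peg3 fell in females (log2 fold change -1.53, SE 0.202, adjusted p = 4.99e-05) and males (log2 fold change -1.74, SE 0.203, adjusted p = 1.33e-05), with no overlap in either sex. Its window above, with the CRE 178 bases before the start, also holds the start of Usp29, which runs the other way.

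Usp29, a ubiquitin protease gene, measured 1.05, 1.90, 0.831 and 1.38 CPM in female controls and 0.0292, 0.595, 0.0597 and 0.172 in female GOF. Its male levels were 1.29, 4.24, 2.04 and 1.85 CPM in controls and 0.159, 0.257, 0.15 and 0.302 in GOF. Usp29 fell in females (log2 fold change -2.52, SE 0.637, adjusted p = 0.00605; -3.87 without female GOF 2) and males (log2 fold change -3.43, SE 0.652, adjusted p = 0.000851). Zim1, a zinc finger gene expressed from the mother's allele, measured 10.3, 7.62, 10.2 and 17.1 CPM in female controls and 3.07, 5.11, 2.66 and 3.57 in female GOF. In males Zim1 measured 12.6, 17.1, 19.6 and 12.6 CPM in controls and 4.90, 9.06, 12 and 6.46 in GOF. Zim1 fell in females (log2 fold change -1.65, SE 0.309, adjusted p = 0.000744) and males (log2 fold change -0.93, SE 0.301, adjusted p = 0.0249), where the call was lost without male control 2 or 3 or male GOF 1 or 4 (adjusted p between 0.0557 and 0.0729), with the number range of the titles as a covariate (0.0579), with limma on unfiltered FPKM (0.0571) and without female controls 1 and 3 and male control 2 (0.0772).

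In the Snrpn-Ndn domain, the counterpart of the human Prader-Willi region, 3 of 5 members fell in both sexes. Ndn (62346569 to 62350262, plus strand) encodes necdin, a MAGE family growth suppressor of neurons, and measured 181, 163, 156 and 175 CPM in female controls and 73.5, 65.9, 84.9 and 79.0 in female GOF. Male libraries held 264, 305, 252 and 233 CPM of Ndn in controls and 75.1, 69.2, 68.5 and 54.6 in GOF. Male controls lay above all female controls, whereas the GOF groups of the sexes overlapped. Ndn fell 2.23-fold in females (log2 fold change -1.16, SE 0.108, adjusted p = 2.99e-06) and 3.94-fold in males (log2 fold change -1.98, SE 0.11, adjusted p = 1.35e-07). The fall was larger in males (interaction -0.82, SE 0.151, adjusted p = 0.00722). Without female controls 1 and 3 and male control 2 the interaction was -0.75 (adjusted p = 0.0635).

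Magel2, another MAGE family gene, measured 4.42, 2.81, 3.05 and 4.78 CPM in female controls and 0.936, 0.733, 0.956 and 0.943 in female GOF. In males it had 3.82, 4.74, 3.77 and 3.1 CPM in controls and 0.822, 0.80, 1.88 and 1.30 in GOF. Magel2 fell in females (log2 fold change -2.08, SE 0.289, adjusted p = 7e-05) and males (log2 fold change -1.68, SE 0.283, adjusted p = 0.000317), with no overlap. Snrpn, which encodes a spliceosome protein, had 6.41, 7.42, 5.11 and 4.99 CPM in female controls and 2.81, 2.95, 3.76 and 3.29 in female GOF. Male Snrpn levels were 6.74, 18.4, 8.16 and 6.74 CPM in controls and 4.61, 3.09, 2.73 and 3.84 in GOF, highest in male control 2. Snrpn fell in females (log2 fold change -0.90, SE 0.299, adjusted p = 0.0263) and males (log2 fold change -1.49, SE 0.301, adjusted p = 0.00138; -1.02 without male control 2). The female call was lost without female control 1 or 2 or female GOF 1 or 2 (adjusted p between 0.0521 and 0.0756), with the number range as a covariate (0.0571) and with limma on unfiltered FPKM (0.0941), and 34.1% of the exon bases of Snrpn are shared, in part with Snurf, which had 0 counts, and with Gm38393 on the same strand, at 3.46 ± 0.654 and 2.83 ± 0.841 CPM in female control and GOF and 4.11 ± 1.28 and 4.02 ± 1.45 in male control and GOF (SD, n = 4).

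The other members of this domain, Peg12 and Mkrn3, did not pass for a fall. Peg12, a Frat family gene whose relatives bind GSK3 in WNT signalling, had 2.48, 3.07, 1.94 and 2.05 CPM in female controls and 3.92, 2.84, 3.35 and 4.57 in female GOF. Its male levels were 2.18, 2.14, 2.13 and 2.45 CPM in controls and 2.31, 3.52, 3.43 and 2.81 in GOF. Peg12 rose in females (log2 fold change 0.62, SE 0.209, adjusted p = 0.0283) and did not pass in males (log2 fold change 0.44, SE 0.209, adjusted p = 0.113). The female call was lost without female control 3 or 4 or female GOF 1 or 4 (adjusted p between 0.0608 and 0.127), with the number range as a covariate (0.121), with no filter (0.1001), with only the groups compared (0.0649), without female control 1 and male control 2 (0.0550) and without female controls 1 and 3 and male control 2 (0.196). Mkrn3, a ubiquitin ligase gene that restrains puberty in the hypothalamus, lay between 1.2 and 3.8 CPM in all libraries and passed in no comparison.

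At the Peg10 domain of chromosome 6, Peg10 changed in opposite directions in the sexes, and the interaction passed for 2 of the 4 members, Peg10 and Sgce. Peg10 (4747306 to 4760517, plus strand), a retrotransposon-derived gene, and Sgce, the gene of epsilon-sarcoglycan, start next to each other in opposite directions. Peg10 measured 522, 547, 415 and 491 CPM in female controls and 899, 793, 1039 and 786 in female GOF. In males Peg10 measured 469, 529, 527 and 543 CPM in controls and 303, 464, 355 and 255 in GOF. All female GOF libraries lay above, and all male GOF libraries below, the controls of their sex. Peg10 rose 1.78-fold in females (log2 fold change 0.83, SE 0.155, adjusted p = 0.000691) and fell 1.5-fold in males (log2 fold change -0.59, SE 0.154, adjusted p = 0.0082). The sexes differed in this effect (interaction -1.42, SE 0.218, adjusted p = 0.00303), with an adjusted p of at most 0.0334 over the 26 alternatives that gave one.

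Sgce measured 73.4, 73.2, 66.7 and 75.1 CPM in female controls and 118, 99.3, 119.9 and 112 in female GOF. Male Sgce levels were 97.0, 93.4, 96.1 and 95.7 CPM in controls and 111, 109.9, 103 and 103 in GOF, above the controls in every GOF library. Sgce rose in females (log2 fold change 0.64, SE 0.0625, adjusted p = 4.33e-06) and missed the threshold in males (log2 fold change 0.16, SE 0.0622, adjusted p = 0.053), where it passed without female GOF 2 (adjusted p = 0.0483) and, with a log2 fold change of 0.17 to 0.28, under 6 other alternatives: RLE scaling, the filter of 10 counts, DESeq2 and 3 limma fits on FPKM (adjusted p between 0.00251 and 0.0275). Its effect was smaller in males (interaction -0.48, SE 0.088, adjusted p = 0.00769; 0.0883 without female controls 1 and 3 and male control 2). In the 3 genes with an interaction, Ndn, Peg10 and Sgce, the male effect lay below the female one, and 4.21% of all tested genes passed the interaction test, 2.61% with the male effect lower and 1.59% with it higher. The ratio of Peg10 to Sgce CPM was 6.84 ± 0.563 in female controls, 7.82 ± 0.681 in female GOF, 5.42 ± 0.394 in male controls and 3.22 ± 0.786 in male GOF (SD, n = 4).

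Ppp1r9a, the gene of the actin-binding protein neurabin, measured 104, 92.2, 97.6 and 109.9 CPM in female controls and 158, 157, 122 and 133 in female GOF and rose there (log2 fold change 0.50, SE 0.102, adjusted p = 0.00149). In males it had 101, 92.9, 93.9 and 115 CPM in controls and 101, 127, 126 and 119.8 in GOF (log2 fold change 0.23, SE 0.102, adjusted p = 0.0842), and it passed without male control 4 or male GOF 1 (adjusted p of 0.0357 and 0.0455) and with limma on filtered FPKM (0.0258 and 0.0252). Asb4, a gene with ankyrin repeats and a SOCS box, measured 2.05, 2.74, 2.31 and 1.94 CPM in female controls and 1.46, 1.08, 0.508 and 1.63 in female GOF and fell (log2 fold change -0.95, SE 0.326, adjusted p = 0.0316). That call was lost without female control 2 or 3 or female GOF 2 or 3 (adjusted p between 0.0597 and 0.0828), without female controls 1 and 3 and male control 2 (0.0979) and with limma on FPKM + 1 (0.0648 filtered and 0.120 unfiltered). Male Asb4 levels of 3.29, 3.48, 4.45 and 6.12 CPM in controls and 2.44, 2.11, 1.88 and 3.53 in GOF overlapped (log2 fold change -0.80, SE 0.319, adjusted p = 0.0617), and Asb4 passed there with DESeq2 (adjusted p = 0.0330) and with the number range as a covariate (0.0429), and without female GOF 3 or male GOF 4 (between 0.0243 and 0.0358).

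Gnas on chromosome 2 encodes the stimulatory G protein subunit that couples the ACTH receptor to cAMP, along with imprinted alternative transcripts. It measured 49.0, 56.4, 46.5 and 45.8 CPM in female controls and 26.6, 31.6, 33.8 and 34.6 in female GOF. Male libraries held 52.9, 83.9, 59.9 and 72.6 CPM in controls and 30.3, 32.0, 31.1 and 27.8 in GOF. Gnas fell in females (log2 fold change -0.64, SE 0.127, adjusted p = 0.00114) and males (log2 fold change -1.15, SE 0.128, adjusted p = 8.27e-06), with no overlap, and its interaction passed without male control 1 (adjusted p = 0.0441 against 0.125). A count per gene adds all transcripts of the locus. The antisense RNA Nespas had between 0.0572 and 0.979 CPM over the 16 libraries and was not tested; where an alternative kept it, it was called in males with DESeq2 and with no filter, among others.

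Among the members that lie alone, 5 fell in both sexes. Mest, a gene of the alpha/beta hydrolase fold that marks mesoderm, measured 54.1, 44.7, 41.2 and 56.5 CPM in female controls and 13.7, 15.7, 17.4 and 20 in female GOF. Male Mest levels were 54.6, 88.8, 76.3 and 75.7 CPM in controls and 28.3, 20.4, 29.9 and 26.2 in GOF. Mest fell in females (log2 fold change -1.56, SE 0.165, adjusted p = 7.75e-06) and males (log2 fold change -1.50, SE 0.164, adjusted p = 7.13e-06), and Copg2 on the other strand, which overlaps 23.1% of the exon bases of Mest, had 108.9, 93.2, 96.0 and 74.2 mean CPM in female control, female GOF, male control and male GOF. Plagl1, a zinc finger regulator of other imprinted genes, measured 11.5, 7.46, 6.53 and 9.63 CPM in female controls and 2.08, 3.27, 1.79 and 1.83 in female GOF. In males it measured 10.2, 12.7, 13.6 and 11.1 CPM in controls and 3.37, 3.92, 4.06 and 2.87 in GOF. Plagl1 fell in females (log2 fold change -1.96, SE 0.229, adjusted p = 1.67e-05) and males (log2 fold change -1.75, SE 0.226, adjusted p = 3.05e-05), and neither it nor Mest overlapped between genotypes.

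Nnat, the gene of the small membrane protein neuronatin of nerve and endocrine cells, measured 58.2, 86.1, 29.4 and 83.7 CPM in female controls and 6.40, 12.9, 5.82 and 11.1 in female GOF. Its male levels were 64.1, 101, 131 and 124 CPM in controls and 9.67, 10.9, 12.5 and 10.1 in GOF. Nnat fell in females (log2 fold change -2.82, SE 0.348, adjusted p = 3.16e-05) and males (log2 fold change -3.28, SE 0.353, adjusted p = 7.49e-06), with the lowest control, female control 3, still above every GOF library. Impact, an inhibitor of the stress kinase GCN2, measured 66.8, 82.5, 62.8 and 63.9 CPM in female controls and 44.8, 48.5, 39.9 and 40.4 in female GOF. Male Impact levels were 100.3, 116, 112 and 108 CPM in controls and 77.4, 55.3, 72.8 and 65.1 in GOF. Impact fell in females (log2 fold change -0.67, SE 0.11, adjusted p = 0.000264) and males (log2 fold change -0.69, SE 0.109, adjusted p = 0.000191), and the interaction did not pass (adjusted p = 0.962).

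Slc38a4, an amino acid transporter gene known from liver and placenta, measured 5.90, 11.7, 9.33 and 7.25 CPM in female controls and 0.789, 2.13, 0.777 and 1.32 in female GOF. In males Slc38a4 measured 9.63, 51.3, 14.2 and 19.0 CPM in controls and 1.43, 0.857, 1.68 and 1.51 in GOF. It fell in females (log2 fold change -2.76, SE 0.492, adjusted p = 0.000534) and males (log2 fold change -4.10, SE 0.516, adjusted p = 2.64e-05), and its highest value was in male control 2, the library with the liver markers, without which the male change was -3.38 (adjusted p = 1.06e-05). Grb10, an adaptor that dampens insulin and IGF receptor signalling, measured 212, 246, 239 and 178 CPM in female controls and 156, 237, 215 and 165 in female GOF, which overlapped (log2 fold change -0.18, SE 0.134, adjusted p = 0.308). In males Grb10 measured 157, 154, 181 and 168 CPM in controls and 103, 104, 123 and 125 in GOF and fell (log2 fold change -0.54, SE 0.135, adjusted p = 0.00613).

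Sex differences were fewer than genotype differences. Among controls 14 of 33 members passed, 10 higher and 4 lower in males, where 23.4% of all genes passed, 13.5% higher and 9.89% lower. Among GOF 13 passed, 9 higher and 4 lower in males, where 29.6% of all genes passed, 13.3% higher and 16.3% lower. The 8 members called in both genotypes kept their direction: Rian, Peg3, Asb4, Mest and Impact were higher in males, and Cdkn1c, Phlda2 and Grb10 lower. Rian was 1.67-fold higher in male controls (log2 fold change 0.74, SE 0.218, adjusted p = 0.0245) and 1.94-fold higher in male GOF (log2 fold change 0.96, SE 0.221, adjusted p = 0.00475). Impact was higher in both (log2 fold change 0.66, adjusted p = 0.000657, and 0.64, adjusted p = 0.000575), and Grb10 lower (-0.41, adjusted p = 0.0402, and -0.76, adjusted p = 0.000708).

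Igf2, Slc38a4, Gnas, Ndn and Sgce were higher in males among controls, and Ascl2 lower. Igf2 had a log2 fold change of 1.16 (adjusted p = 0.0277; 0.0859 without male control 2) and Slc38a4 one of 1.46 (adjusted p = 0.0328), which was 0.74 (adjusted p = 0.163) without male control 2. Among GOF, Meg3, Mirg, Zim1 and Plagl1 were higher in males and Peg10 lower; Meg3 had 1.43 (adjusted p = 0.0201) and Zim1 1.17 (adjusted p = 0.00968). Without overlap, 9 members were higher and 3 lower in male controls, beside 14.4% and 10.9% of all genes, and 5 were higher and 4 lower in male GOF, beside 13.4% and 15.7%. Marker lists also differed between the control groups: 4 of 6 Schwann, 6 of 8 macrophage, 6 of 10 capsule and stroma and 7 of 10 liver markers were called higher in males, and 2 of 2 tested kidney tubule markers lower (median log2 fold change -5.25). Among GOF, 6 of 8 macrophage, 5 of 7 endothelium and 5 of 10 capsule and stroma markers were called higher in males and 4 of 8 adrenal cortex markers lower. The part of these markers in the sex differences was not tested.

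These sex counts depended on single libraries and on the analysis. Among controls, Rian and Mest were lost without female control 3 or male control 2 (adjusted p between 0.0530 and 0.0799), Gnas without female control 3 or 4 or male control 2 or 4, Grb10 without any of 6 control libraries, Igf2 without any of 5, Slc38a4 without female control 1, 3 or 4 or male control 2, and Asb4 without any of 12 libraries. Among GOF, Meg3 was lost without male GOF 3 (adjusted p = 0.0761), Asb4 without male GOF 4, Mirg without any of 3 libraries, Peg3 without any of 4 and Plagl1 without any of 6.

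Other calls appeared only under an alternative. H19 did not pass between the sexes in GOF (log2 fold change -1.35, SE 0.567, adjusted p = 0.0875), but did without male control 2 (adjusted p = 0.0224), also when female control 1 or female controls 1 and 3 were left out with it (0.0239 and 0.0317), with DESeq2 (0.0474) and with only the groups compared (0.0247). Slc22a3 did not pass between control sexes (log2 fold change 1.10, SE 0.382, adjusted p = 0.05), but did without female control 1, male control 1 or female GOF 2 (between 0.00696 and 0.0498), without female control 1 and male control 2 (0.0492), with DESeq2 (0.0244) and with the filter of 10 counts (0.0497). Also among controls, Airn passed without female control 1 (0.0490), Snrpn without male control 1 (0.0436), and Rtl1 and Mirg with limma on filtered log2(FPKM + 1) (0.0256 and 0.0459). Among GOF, Rtl1 passed without female GOF 2 (0.0312) and Ppp1r9a without female GOF 3 (0.0335).

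Choices of filter and model also ended sex calls. With no filter on low counts 10 of the 14 members among controls passed, without Igf2, Rian, Asb4 and Slc38a4, and 10 of the 13 among GOF, without Phlda2, Meg3 and Plagl1. With only the groups compared 11 passed among controls, where Gnas and Slc38a4 missed the threshold and Ascl2 was not tested. In the same fit 8 of the 13 among GOF passed, without Meg3, Mirg, Peg3, Asb4 and Plagl1. Limma on unfiltered FPKM lost Rian, Grb10 and Slc38a4 among controls and Mirg and Plagl1 among GOF. On filtered FPKM, limma lost Mirg among GOF with a pseudocount of 1, and Grb10 and Slc38a4 among controls with a pseudocount of 0.1.
Of the 14 members among controls, 7 passed without female control 3, 8 without male control 2 and 4 without female controls 1 and 3 and male control 2, which were Cdkn1c, Ndn, Sgce and Impact. Of the 13 among GOF, 8 passed without male GOF 3. The sample titles carry numbers in 4 ranges whose meaning the labels do not give, and only 1 range, with 7 libraries, held both sexes. With the range as a covariate 5 members passed among controls (Cdkn1c, Phlda2, Ndn, Sgce and Impact) and 3 among GOF (Cdkn1c, Peg10 and Grb10). Within that range female control 1 had 200.1 CPM of Cdkn1c and male controls 1 to 3 had 58.7, 42.5 and 45.2, while for Rian they had 187 against 257, 386 and 286.

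**Figure D5:**
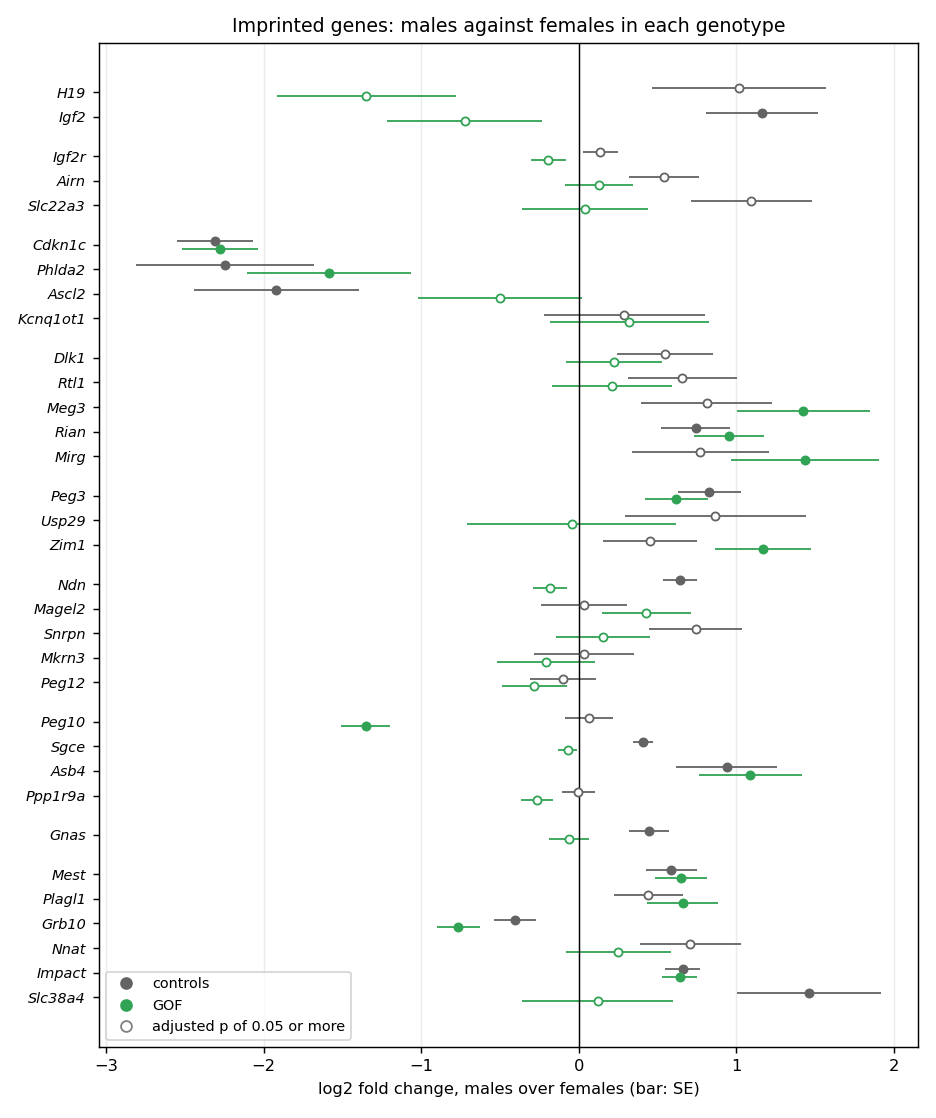
Log2 fold change of each tested member, males over females, with its SE as a bar, in controls (grey) and GOF (green), grouped by domain; open circles did not pass an adjusted p of 0.05. Cdkn1c lies at -2.31 and -2.28 in controls and GOF, and Peg10 lies near 0 in controls and at -1.35 in GOF.

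Ranked by level per length, in the deposited FPKM, the order of the members changed with genotype. In female controls Dlk1 (302 ± 82.3), Cdkn1c (190.0 ± 35.9), Rian (122 ± 16.6), Meg3 (106 ± 31.4) and Grb10 (104 ± 12.6) led; the mean ± SD ranges of Dlk1 and Cdkn1c overlapped, as did those of the last 3. In male controls the highest were Dlk1 (445 ± 38.9), Rian (205 ± 35.3) and Meg3 (187 ± 59.7), with Rian and Meg3 within their spread of each other, and Cdkn1c stood at 38.7 ± 8.73. In female GOF Cdkn1c (178 ± 16.2), Peg10 (133 ± 16.5) and Grb10 (96.2 ± 19.6) led, and Dlk1 stood at 22.8 ± 12.5. In male GOF Impact (75.5 ± 11.4), Igf2r (69.3 ± 8.53), Grb10 (59.6 ± 7.53) and Sgce (59.1 ± 1.31) led, with mean ± SD ranges that overlapped between neighbours in the order, and Dlk1 stood at 27.8 ± 6.99. Igf2 was at 0.228 ± 0.0466 FPKM in female controls and at 0.517 ± 0.186 in male controls, with H19 at 3.31 ± 1.35 and 6.66 ± 6.35. Most exon bases of Igf2 are shared with other genes, and since the counting mode is not given in the sources used here, reads there may have been left out of its level. All levels are FPKM, mean ± SD, n = 4. The length used in the FPKM matched the mean length of a gene's annotated transcripts in all 33 members checked. The order between genes thus depends on which transcripts are annotated. For Igf2r that length was 3312 bases, beside 9308 exon bases.

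Of 34 further imprinted genes listed, 30 were tested, and 14 fell and 6 rose in females while 8 fell and 4 rose in males. That is 46.7% lower in females, where 20.6% of all tested genes were lower, and 26.7% lower in males, near the 21.8% of all genes; the shares that rose were also near those of all genes (19.0% and 15.2%). Ddc, which also makes dopamine in chromaffin cells, fell from 80.4 ± 23.9 to 7.66 ± 2.39 CPM in females (log2 fold change -3.39, adjusted p = 1.24e-05) and from 174 ± 103 to 9.63 ± 2.12 in males (-4.17, adjusted p = 2.12e-06; SD, n = 4). Nap1l5, a nucleosome assembly family gene, fell by 3.55 and 3.95 on the log2 scale. Blcap, the host of Nnat, fell by 0.33 and 0.75. Of 18 factors that set or keep imprints, 17 were tested, and 9 rose and 1 fell in females and 10 rose and 1 fell in males, beside 19.0% of all genes higher and 20.6% lower in females and 15.2% and 21.8% in males. Trim28, the corepressor of imprint-keeping zinc finger proteins, rose by 0.59 and 0.40 on the log2 scale, and Tet2, a methylcytosine oxidase gene, rose by 0.67 in males and stood at 0.24 in females (adjusted p = 0.0854). Dnmt3l, a cofactor of de novo methylation, fell by 2.26 in males and stood at -0.47 in females (adjusted p = 0.255).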

How the data were processed

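RNA of 16 mouse adrenal samples was made into NEBNext Ultra libraries, per the labels' protocols. The authors deposited a count per gene and library, and the submitters' processing notes name Bowtie2 2.2.3, TopHat2 2.0.12, HTSeq 0.6.1 and DESeq 1.18.0. The authors also deposited FPKM, counts scaled by gene length and library depth. The counting mode, strand setting and annotation release are not given in the sources used here. Members were matched by Ensembl ID to GENCODE M21 (GRCm38). The members and lists were chosen with earlier results of these data known. By rule, a member has its value in each library where a group mean reached 1 CPM and it passed a test of genotype or sex, the others have ranges, and of each further gene list the 3 genes with the smallest adjusted p for GOF are named.

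Genes passing filterByExpr were fitted over the 16 libraries with edgeR 4.0.16 (R 4.3.3, TMM, robust quasi-likelihood), and 18214 were tested. Alternatives were DESeq2 1.42.0, limma 3.58.1 on FPKM, other scalings and filters, and leaving out libraries. Replicates of a group differed beyond sampling noise, and p-values measure only the spread between these samples, which may be technical.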

Additional observations from a re-analysis of the deposited data

Results flagged for a closer look

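In these groups of 4 libraries, 1 library lay far from the other 3 in 8 of 136 groups of member values, and chance gives about 1 in 20. In female control 2, Cdkn1c stood at 289.2 CPM (next 203.27), Dlk1 at 901.42 (next 567.39) and Rtl1 at 10.394 (next 6.1054). In male control 2, Snrpn stood at 18.375 CPM and Mkrn3 at 2.5163. Peg12 was highest in male control 4 at 2.447 CPM, and Peg3 in male GOF 3 at 64.178 CPM. Magel2 was lowest in female GOF 2 at 0.73286 CPM.

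The GOF effect differed between the sexes in 3 members by the interaction test of edgeR. The male minus female effect was -0.82374 for Ndn (SE 0.151, adjusted p = 0.00722), -1.4184 for Peg10 (SE 0.218, adjusted p = 0.00303) and -0.47661 for Sgce (SE 0.0880, adjusted p = 0.00769), on the log2 scale.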

How the results depend on the processing

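No member that passed a test changed direction under any alternative run; some that did not pass changed sign, such as Cdkn1c for GOF in males, which went from -0.13 to 0.03 without male control 1. Requiring a log2 fold change of at least 1 left 3121 genes and 17 members for GOF in females, 3366 genes in males, 1405 genes and 5 members for sex in controls, 1814 genes and 7 members for sex in GOF, and 381 genes and 1 member for the interaction. With the number range of the titles as a covariate, sex gave 1311 genes and 5 members in controls and 1336 genes and 3 members in GOF, and the interaction 442 genes; of the GOF calls it lost Snrpn and Peg12 in females and Kcnq1ot1 and Zim1 in males, and it gained Asb4 in males. Without female controls 1 and 3 and male control 2, an alternative chosen after seeing the data, GOF in females gave 4554 genes, sex in controls 1648 genes and 4 members, and the interaction 175 genes and 1 member. Without female control 1 and male control 2, sex in controls gave 7 members and the interaction 448 genes. The interaction gave 408 genes with no filter, 407 with limma on unfiltered FPKM and 1466 with DESeq2. Leaving out 1 library gave 2650 to 4881 genes and 7 to 16 members for sex in controls, 8 to 14 members for sex in GOF, and 377 to 953 genes and 3 to 5 members for the interaction. The split of called genes moved with scaling, filter and model. For the interaction 37.9% were higher with TMM, 48.5% with the DESeq2-style scaling in edgeR and 60.4% with limma on unfiltered FPKM. For sex in controls 57.8% became 47.6% with no filter. For sex in GOF 44.9% became 55.1% with limma on unfiltered FPKM. The limma fits changed model, scaling and filter at once. The cause of these shifts was not tested. No paired analysis was possible because the labels give no replicate numbers. Members near 1 CPM or below (Igf2, Usp29, Phlda2, Ascl2) rest on few counts.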
